A study of Mus musculus with 9 samples.

Results

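Homologous recombination and Fanconi anemia genes were examined in RNA of mouse aortic endothelium after deletion of 3 MEF2 transcription factors. The set was given by symbol and holds 39 genes. Of these, 35 had an array feature of their own among the 30142 genes measured, each with a single transcript cluster (the array's unit for 1 transcript region). Rad51d and Rad54b lie only on clusters that name several symbols, and Xrcc2 and Rbbp8 are not listed in the table of names used here, so these 4 were not analysed.

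Both groups carried floxed alleles of Mef2a, Mef2c and Mef2d on both chromosomes and both received tamoxifen. ACDiEKO mice were Cdh5-CreERT2(+), with a tamoxifen-activated recombinase driven by the promoter of the endothelial cadherin gene Cdh5. Controls were Cdh5-CreERT2(-) littermates, so effects of the recombinase itself cannot be told apart from those of the deletion. All were females of 10 weeks that received 5 daily injections. Sources differ on the harvest, at 14 days from the first injection in the sample protocols and 7 in the series text. RNA was flushed from the lumen of single aortas, and 9 Clariom D arrays were made, 4 from controls and 5 from ACDiEKO. ACDiEKO replicates 1 and 2 were nearly identical: the robust SD of their difference was 0.0707 over bright clusters, against 0.268 to 0.401 in the other 15 pairs of arrays within a group. They were averaged and counted as 1 sample, which left 4 control and 4 ACDiEKO samples. All values below are deposited log2 values and differences are ACDiEKO minus control in log2 units.

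Homologous recombination repairs broken DNA by copying the intact sister chromatid: the break is trimmed to single strands, BRCA1, PALB2 and BRCA2 prepare them to pair with the sister, and helicases and nucleases resolve the joined molecules. The Fanconi pathway acts on crosslinks between the strands, where a core complex attaches ubiquitin to FANCD2 and FANCI and hands the lesion to recombination. The kinases ATM and ATR, with CHEK2 and CHEK1, hold the cell cycle while repair goes on. Many of these genes are known to be transcribed as cells enter DNA synthesis, partly through E2F factors, and most endothelial cells of an adult aorta are quiescent.

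Many genes of this set were higher in ACDiEKO. With no filter on dim genes, 14 of 35 rose and none fell (limma, Benjamini-Hochberg adjusted p under 0.05), against 3.61% of all 30142 genes higher and 2.92% lower. Of the 35 differences, 32 were above 0, with a median of 0.43, against a median of -0.03 over all genes. Without an adjustment, 27 of 35 had p under 0.05, all of them higher, against 6722 of all 30142 genes in either direction. A filter that asked for 4 arrays above the median of the table (6.17) kept 30 of the 35 and 16403 genes in all, of which 8.92% were called higher and 7.33% lower. Of the 30, 15 were called higher and none lower. Brca1, Rad54l, Fanca and Exo1 had all 4 controls below that median and were kept only through ACDiEKO arrays. Rad51ap1, Clspn, Palb2 and Bard1 had some controls below it and also needed ACDiEKO arrays to reach 4. The count of 15 is therefore a description and no support. All 4 ACDiEKO samples lay above all 4 controls in 23 of the 35 genes, a separation found in this direction in 6.94% of all genes and in the other in 7.47%. The risen genes were spread over the roles: 3 of 5 in the BRCA complexes, 2 of 6 among strand exchange factors, 2 of 8 in the Fanconi core with FANCM, 1 of 2 in the FANCD2 and FANCI pair, 1 of 4 in break sensing and resection, 1 of 4 among the helicase and nucleases, and 4 of 6 among checkpoint kinases and their adaptors.

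Centred on their medians, the arrays gave 18 of 35 higher and none lower. Over all genes, 1089 rose and 881 fell as deposited, and 1478 rose and 722 fell after centring. The array medians were 6.17 to 6.23 for controls, and those of ACDiEKO were lower, 6.13 to 6.15. Leaving out each of the 8 samples in turn gave 7 to 15 risen members. In these fits 854 to 1480 of all 30142 genes passed in either direction. Rad51ap1, Brca1, Blm, Brip1, Fanca and Clspn passed in every one of these fits. The count was 7 without control replicate 4 or ACDiEKO replicates 1 and 2 together, and 8 without control replicate 1, control replicate 2 or ACDiEKO replicate 4. Without control replicates 3 and 4, 2 mice whose animal numbers are far from the rest, the median difference of the members was again 0.43. An unadjusted p under 0.05 was then found for 22 members and for 5387 of all 30142 genes. Of all 30142 genes 301 passed, and among the members only Rad51ap1 did (difference 1.05, adjusted p = 0.0452, limma). With a term for that run of numbers, which held only controls 3 and 4, 8 members and 1022 of all genes passed. The differences are the same in both fits and only the estimate of error changes, so these are not 2 separate checks.

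**Figure D1:**
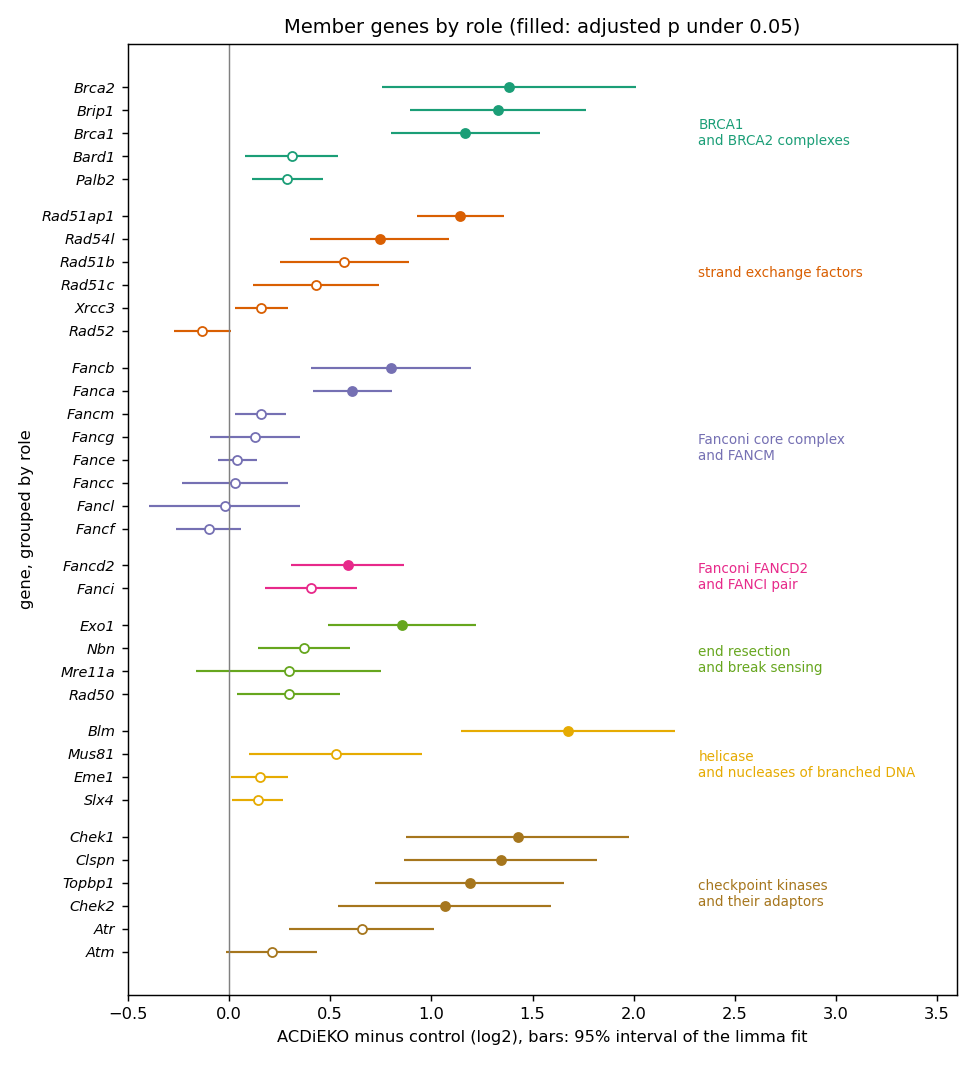
Differences of the 35 member genes, ACDiEKO minus control in log2 units, with 95% intervals of the limma fit. Genes are grouped by role, and filled circles mark an adjusted p under 0.05. The 14 filled circles lie between 0.59 and 1.68.

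Windows of 300 bases around the annotated start sites (250 before and 50 after, RefSeq, GRCm38.p6) were found for 31 of the 35 genes. They were searched on both strands for 4 short words of E2F sites, TTCCCGC or TTCGCGC or TTGCCGC or TTGGCGC. At least 1 word was present in 18 of the 31 genes (58.1%), against 10.9% of 27025 genes with a window. It was present in 10 of the 12 risen genes with a window and in 8 of the 19 others. The median difference was 0.93 in the 18 genes with a word and 0.29 in the 13 without. The words rest on G and C, and the windows of members had a median GC content of 58.0%, against 52.8% over all genes. The longer words with 1 more T in front were in 7 of 31 genes, against 2.6% of all, CCAAT in 19 (41.1% of all), and TTTGAA or TTCGAA in 4 (21.7% of all). By call, the longer words were in 4 of the 12 risen genes and 3 of the 19 others. CCAAT was in 9 of 12 and 10 of 19, and TTTGAA or TTCGAA in 0 of 12 and 4 of 19. Median differences with and without were 1.07 and 0.35 for the longer words, 0.57 and 0.42 for CCAAT, and 0.44 and 0.43 for TTTGAA or TTCGAA. The consensus of MEF2 was in 0 of the 31 windows and in 3.70% of all genes. These letters were chosen with the counts known, and a match is a description of the window and not a bound site.

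The stretch around the word is shown for all 10 risen genes that hold one, and for Rad52 and Fancg, which hold one and did not pass, so that both kinds can be compared. Each is written 5′ to 3′ on the strand of the gene, with the word in capitals.
Blm, chr7:80535123-80535151, minus strand: aatcatccttcTTGCCGCgcagagcgtgc
Chek1, chr9:36726609-36726626, minus strand: agcaggttttgGCGGGAA
Brca2, chr5:150522442-150522470, plus strand: tttaggccacaGCGGGAAacagacacaca
Clspn, chr4:126556990-126557018, plus strand: accgcgtctggGCGCGAAagctcgaactt
Brip1, chr11:86201180-86201208, minus strand: aggggcgggagGCGCGAAttcatctgtgt
Topbp1, chr9:103305184-103305212, plus strand: cgtccgctcggTTGGCGCgaaagtcggtt
Brca1, chr11:101551917-101551945, minus strand: gctagcgctagGCGCCAAgcggccggttt
Rad51ap1, chr6:126939558-126939586, minus strand: tctggttttcgGCGGGAAttgaaaccgcc
Chek2, chr5:110839820-110839848, plus strand: cgggattagccGCGGGAAaccaagacgtc
Fancb, chrX:164980409-164980437, plus strand: ccggggtagagGCGGGAAtaagtgctctg
Rad52, chr6:119902555-119902583, plus strand: ttgctgcggctGCGGGAAggctgatcgcc
Fancg, chr4:43010335-43010363, minus strand: ttcttttcagtTTCCCGCggaaccgtctc

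The same word, GCGGGAA as read on the gene's strand, stands in 9 genes: Chek1, Brca2, Rad51ap1, Chek2 and Fancb, which rose, and Rad52, Atm, Fanci and Rad51c, which did not pass. Its place varied in both kinds. Among the risen genes it begins 168, 152 and 172 bases before the start site in Brca2, Chek2 and Fancb, and after it, at positions 44 and 13, in Chek1 and Rad51ap1. Among the others it begins 132 and 5 bases before the start site in Rad52 and Rad51c, and at positions 16 and 19 after it in Atm and Fanci. In Topbp1 a second word (GCGCGAA) overlaps the one shown. The Chek1 stretch is short because the window ends there.

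In the BRCA complexes, Brca1, Brca2 and Brip1 rose, and Bard1 and Palb2 did not pass. Sample values are given in the order of control replicates 1 to 4, then ACDiEKO replicates 1 and 2 (their mean), 3, 4 and 5. Brca1 read 5.61, 5.65, 5.76 and 5.55 in the controls and 6.72, 7.14, 6.99 and 6.40 in ACDiEKO. Every ACDiEKO sample of this ubiquitin ligase subunit lay above every control, and the rise was 1.17 (SE 0.16, adjusted p = 0.00902), in limma as for all adjusted p-values here, from 5.64 ± 0.09 to 6.81 ± 0.33 (SD, n = 4 and 4). Brca2 read 6.85, 6.91, 7.62 and 7.39 in the controls and 8.75, 8.44, 9.09 and 8.03 in ACDiEKO. BRCA2 acts on the trimmed strands, and its transcript rose by 1.38 (SE 0.27, adjusted p = 0.0281). Controls 3 and 4 were its highest controls, and its groups did not overlap. The call was lost without any 1 of control replicates 1, 2 or 4 or ACDiEKO replicates 1 and 2 together, 3 or 4 (adjusted p = 0.0600 to 0.0833). Brip1 read 6.33, 6.37, 6.27 and 6.26 in the controls and 8.04, 7.38, 7.91 and 7.22 in ACDiEKO. Brip1 encodes the helicase FANCJ, and its ACDiEKO samples formed a high pair (replicates 1 and 2, and 4) and a lower pair, all above the controls, with a rise of 1.33 (SE 0.19, adjusted p = 0.0101). Bard1 read 6.14, 6.28, 6.19 and 6.14 in the controls and 6.34, 6.47, 6.78 and 6.40 in ACDiEKO. The difference of this partner of BRCA1 was 0.31 (95% interval 0.08 to 0.54). Palb2, which joins BRCA1 to BRCA2, ranged from 5.96 to 6.22 in controls and 6.30 to 6.51 in ACDiEKO, a difference of 0.29 (95% interval 0.11 to 0.46). The groups of both did not overlap, yet neither passed (adjusted p = 0.121 and 0.0702).

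Among the strand exchange factors, Rad51ap1 and Rad54l rose. Rad51ap1 read 6.24, 6.15, 6.04 and 5.99 in the controls and 7.44, 7.31, 7.16 and 7.08 in ACDiEKO. The product of Rad51ap1 stimulates strand invasion, and its rise of 1.14 (SE 0.09, adjusted p = 0.00234), from 6.10 ± 0.11 to 7.25 ± 0.16, had the smallest p of the set. Rad54l read 5.84, 5.97, 5.95 and 5.83 in the controls and 6.44, 6.72, 7.04 and 6.36 in ACDiEKO. The groups of this DNA translocase did not overlap, and the rise was 0.74 (SE 0.15, adjusted p = 0.0296). Its call was lost without any 1 of the 4 controls, ACDiEKO replicates 1 and 2 together, or ACDiEKO replicate 3 (adjusted p = 0.0533 to 0.0838). Rad51b read 5.44, 5.74, 5.5 and 5.43 in the controls and 6.07, 6.01, 6.46 and 5.86 in ACDiEKO. Its groups did not overlap, and its difference of 0.57 (95% interval 0.25 to 0.89) missed the threshold as deposited (adjusted p = 0.0538) and passed after median centring (difference 0.63, adjusted p = 0.0295). Rad51c read 6.34, 6.50, 6.64 and 6.48 in the controls and 7.04, 6.71, 7.23 and 6.71 in ACDiEKO. All ACDiEKO samples of Rad51c lay above the controls, a difference of 0.43 (95% interval 0.12 to 0.74). Xrcc3 read 7.10, 7.27, 7.19 and 7.10 in the controls and 7.27, 7.43, 7.32 and 7.27 in ACDiEKO. The groups of Xrcc3 shared a value and differed by 0.16 (95% interval 0.03 to 0.29). Rad52 read 9.91, 9.96, 9.96 and 9.87 in the controls and 9.87, 9.63, 9.79 and 9.87 in ACDiEKO. Rad52, an annealing protein, was 9.92 ± 0.04 in controls and 9.79 ± 0.11 in ACDiEKO, a difference of -0.13 (95% interval -0.27 to 0.01), and the groups overlapped.

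In the Fanconi core, Fanca and Fancb rose, and the other 6, Fancm among them, did not pass. Fanca read 5.84, 5.86, 5.85 and 5.95 in the controls and 6.50, 6.53, 6.65 and 6.25 in ACDiEKO. The rise of this core subunit was 0.61 (SE 0.08, adjusted p = 0.00935), with no overlap. Fancb read 7.42, 7.11, 7.46 and 7.19 in the controls and 8.29, 8.0, 8.40 and 7.68 in ACDiEKO. FANCB forms the catalytic part with FANCL, and its transcript rose by 0.80 (SE 0.17, adjusted p = 0.0357). The Fancb call was lost without any 1 sample other than ACDiEKO replicate 5 (adjusted p = 0.0647 to 0.0989). Fancl read 8.87, 8.78, 9.15 and 8.85 in the controls and 8.69, 9.13, 9.17 and 8.57 in ACDiEKO. Fancl, the ubiquitin ligase itself, was 8.91 ± 0.17 in controls and 8.89 ± 0.30 in ACDiEKO, a difference of -0.02 (95% interval -0.40 to 0.35) that was 0.04 after median centring. Fancc differed by 0.03 (95% interval -0.23 to 0.29), Fance by 0.04 (95% interval -0.06 to 0.14), and Fancf by -0.10 (95% interval -0.26 to 0.06). Fancg differed by 0.13 (95% interval -0.10 to 0.35). These intervals leave out a rise as large as that of Fanca. However, Fancc, Fance, Fancf and Fancg each held 1 exact value on 3 arrays, and Fancf was not past the filter on dim genes. Their intervals may therefore be too narrow, and a larger rise is not excluded. Fancm read 7.01, 6.88, 6.95 and 6.99 in the controls and 7.24, 7.05, 7.11 and 7.05 in ACDiEKO. The groups of this translocase gene did not overlap, and its difference was 0.16 (95% interval 0.03 to 0.28).

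The core complex acts on the FANCD2 and FANCI pair, and both transcripts were dim in controls. Fancd2 read 5.77, 5.74, 5.78 and 5.73 in the controls and 6.56, 6.13, 6.56 and 6.11 in ACDiEKO. The controls lay within a narrow range and the ACDiEKO samples in 2 levels above it, a rise of 0.59 (SE 0.12, adjusted p = 0.0329). The Fancd2 call was lost without any 1 of the 4 controls, ACDiEKO replicates 1 and 2 together, or ACDiEKO replicate 4 (adjusted p = 0.0715 to 0.0889). Fanci read 5.87, 5.91, 5.90 and 5.74 in the controls and 6.31, 6.15, 6.51 and 6.07 in ACDiEKO. Fanci did not overlap between groups and missed the threshold, with 0.40 (SE 0.10, adjusted p = 0.057), and it passed after median centring (0.47, adjusted p = 0.0356). Neither gene was past the filter on dim genes. The control mean lay below the median of the table in 7 of the 14 risen genes, Brca1, Rad51ap1, Rad54l, Fanca, Fancd2, Exo1 and Clspn. Whether their dimness altered the size of their rises was not tested.

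Break sensing and resection gave 1 rise in 4 genes. Exo1 read 5.80, 5.59, 5.74 and 5.76 in the controls and 6.96, 6.42, 6.72 and 6.22 in ACDiEKO. Exo1, the nuclease of long-range resection, rose by 0.86 (SE 0.16, adjusted p = 0.023), and its groups did not overlap. The call was lost without any 1 of the 4 controls or ACDiEKO replicate 4 (adjusted p = 0.05001 to 0.0732). Of the MRE11, RAD50 and NBN complex that first binds a break, Nbn was the brightest. Nbn read 10.22, 10.19, 10.34 and 10.29 in the controls and 10.89, 10.51, 10.65 and 10.46 in ACDiEKO. The groups did not overlap, the difference was 0.37 (95% interval 0.14 to 0.60) with adjusted p = 0.0727, and Nbn passed among the genes kept by the filter (adjusted p = 0.0446). Rad50 differed by 0.29 (95% interval 0.04 to 0.55) and Mre11a by 0.30 (95% interval -0.16 to 0.75), and neither passed.

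Blm had the largest difference among the 35 genes. Blm read 6.74, 6.53, 6.85 and 6.63 in the controls and 8.40, 8.32, 8.95 and 7.79 in ACDiEKO. BLM is the helicase that dissolves joined DNA molecules, and its transcript rose by 1.68 (SE 0.23, adjusted p = 0.0091), from 6.69 ± 0.14 to 8.37 ± 0.47. The lowest ACDiEKO sample lay 0.94 above the highest control. The nuclease subunits did not pass. Mus81 read 7.87, 7.52, 7.38 and 7.52 in the controls and 8.55, 7.89, 8.16 and 7.81 in ACDiEKO. Mus81 differed by 0.53 (95% interval 0.10 to 0.96), with overlapping groups. Its partner Eme1 differed by 0.15 (95% interval 0.01 to 0.29), and the nuclease scaffold Slx4 by 0.14 (95% interval 0.02 to 0.27). Slx4 read 7.58, 7.66, 7.73 and 7.59 in the controls and 7.77, 7.73, 7.73 and 7.90 in ACDiEKO. In Eme1, Slx4 and Xrcc3 the highest control and the lowest ACDiEKO sample held the same value.

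The checkpoint genes rose in 4 of 6 cases. Chek1 read 7.10, 6.90, 7.55 and 7.65 in the controls and 8.78, 8.60, 9.20 and 8.33 in ACDiEKO. CHEK1 is the kinase below ATR, and its transcript rose by 1.43 (SE 0.24, adjusted p = 0.0175). Controls 3 and 4 were again the higher controls, as in Brca2, and all ACDiEKO samples lay above them. The call was lost without ACDiEKO replicates 1 and 2 together (adjusted p = 0.0551). Clspn read 6.29, 6.21, 5.99 and 6.09 in the controls and 7.58, 7.49, 7.95 and 6.93 in ACDiEKO. Claspin, the adaptor through which ATR reaches CHEK1, rose by 1.34 (SE 0.20, adjusted p = 0.0133). Topbp1 read 9.05, 8.37, 9.09 and 8.88 in the controls and 10.04, 10.12, 10.33 and 9.66 in ACDiEKO. TOPBP1 activates ATR, and its transcript rose by 1.19 (SE 0.20, adjusted p = 0.0181), with control 2 as the lowest sample. This call was lost without control replicate 4, ACDiEKO replicates 1 and 2 together, or ACDiEKO replicate 4 (adjusted p = 0.0531 to 0.0551). Chek2 read 7.08, 7.32, 7.98 and 7.28 in the controls and 8.39, 8.71, 8.71 and 8.11 in ACDiEKO. CHEK2 is the kinase below ATM, and its transcript rose by 1.07 (SE 0.22, adjusted p = 0.0359), although control 3 (7.98) came within 0.13 of ACDiEKO replicate 5. The Chek2 call was lost without any 1 of control replicates 1, 2 or 4 or ACDiEKO replicates 1 and 2 together, 3 or 4 (adjusted p = 0.0779 to 0.107).

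The upstream kinases did not pass. Atr read 8.11, 7.86, 8.23 and 8.21 in the controls and 9.07, 8.52, 8.93 and 8.51 in ACDiEKO. The groups did not overlap, and the difference of Atr was 0.66 (95% interval 0.30 to 1.02), with adjusted p = 0.0511. It passed among the genes kept by the filter (adjusted p = 0.0231). Atm read 8.56, 8.66, 8.80 and 8.66 in the controls and 9.12, 8.81, 8.88 and 8.70 in ACDiEKO. The groups of Atm overlapped, with a difference of 0.21 (95% interval -0.01 to 0.43).

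**Figure D2:**
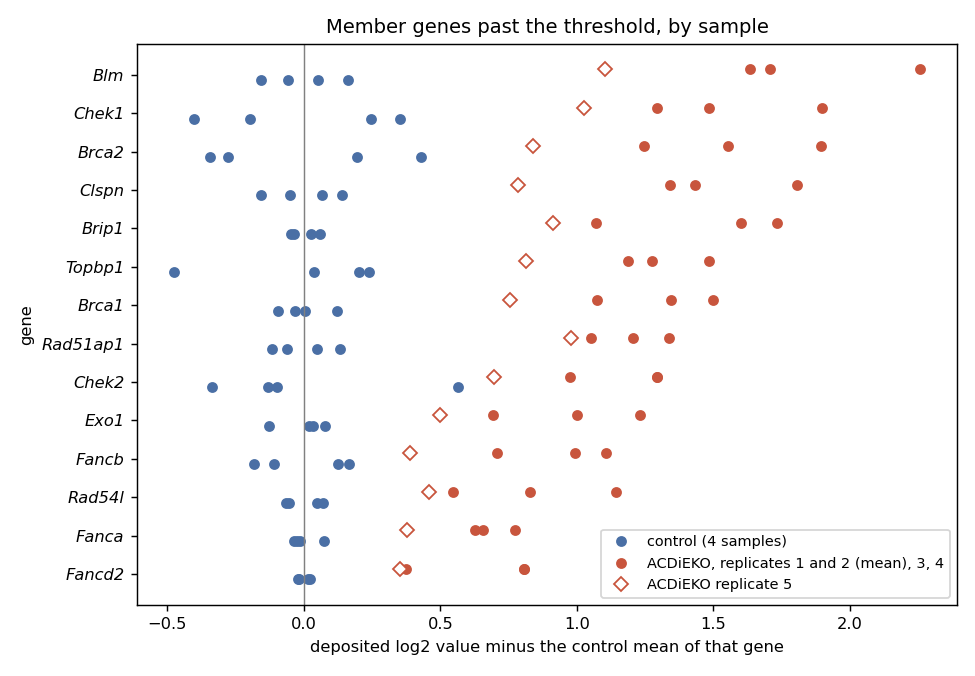
Deposited log2 value of the 14 risen members in each sample, minus the control mean of that gene. Blue circles are controls, red circles are ACDiEKO samples, and the open diamond is ACDiEKO replicate 5, which was the lowest ACDiEKO sample in all 14 genes.

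Among the ACDiEKO samples, replicate 5 was the lowest of the 4 in 14 of 14 risen members and in 11 of the 21 others, and replicate 4 was the highest in 9 of 14 and in 9 of 21. The mean over all 35 members was 7.78 in replicates 1 and 2, 7.67 in replicate 3, 7.90 in replicate 4 and 7.48 in replicate 5, and 7.08 to 7.22 in controls. The SD was larger in ACDiEKO than in control in 12 of the 14 risen members. Proliferation genes (Mki67, Top2a, cyclins, MCM helicase subunits and others) rose in 13 of 14 cases with a median difference of 2.33. Their mean was also lowest in replicate 5, at 9.83, against 10.58 to 10.79 in the other ACDiEKO samples and 7.54 to 8.03 in controls. Leukocyte markers were highest in replicate 5, with a mean of 9.43, against 6.99 to 7.49 in the other ACDiEKO samples and 6.56 to 7.42 in controls, and 0 of 11 passed. Without replicate 5, 15 of the 35 members rose and none fell, while 864 of all 30142 genes rose and 616 fell. The part of proliferating cells and of leukocytes in the members' differences was not tested.

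Mef2a ranged from 13.55 to 13.76 in controls and 13.61 to 13.96 in ACDiEKO (difference 0.12, limma adjusted p = 0.493). Mef2c ranged from 9.78 to 9.99 in controls and 9.86 to 10.11 in ACDiEKO (difference 0.06, limma adjusted p = 0.663). Mef2d ranged from 10.15 to 10.38 in controls and 10.42 to 10.68 in ACDiEKO (difference 0.23, limma adjusted p = 0.144). None of these 3 targeted genes was lower in ACDiEKO. The exons removed are not given in the sources used here and a cluster summarises probes along a transcript, so these levels do not check the deletion or the labels. Endothelial identity was present in both groups: Pecam1 was 17.60 in controls and 17.23 in ACDiEKO, Cdh5 15.59 and 15.83, and Vwf 15.31 and 15.12. Of 11 endothelial markers, Emcn (3.72) and Eng (1.53) rose, and Tek (-1.92) and Pecam1 (-0.37) fell. Of 7 fibroblast markers 1 fell, and none of 6 adipocyte, 3 Schwann cell and 1 erythrocyte markers passed. Markers of smooth muscle, the next layer of the vessel, moved with genotype. Their mean was 8.42 to 9.29 in controls and 9.62 to 10.48 in ACDiEKO, and 7 of 14 rose, among them Acta2 by 3.19 and Tagln by 3.82, while Myh11 differed by -0.04, Cnn1 by -0.27 and Des by 0.00 without passing. With the mean of these 14 markers as a covariate in limma, 0 of 35 members and 0 of all 30142 genes passed, and 7 members and 1945 genes had an unadjusted p under 0.05. The median difference of the members was then 0.25, and 32 were above 0. In RNA from many cells, more cells that express a gene and more RNA per cell cannot be told apart.

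**Figure D3:**
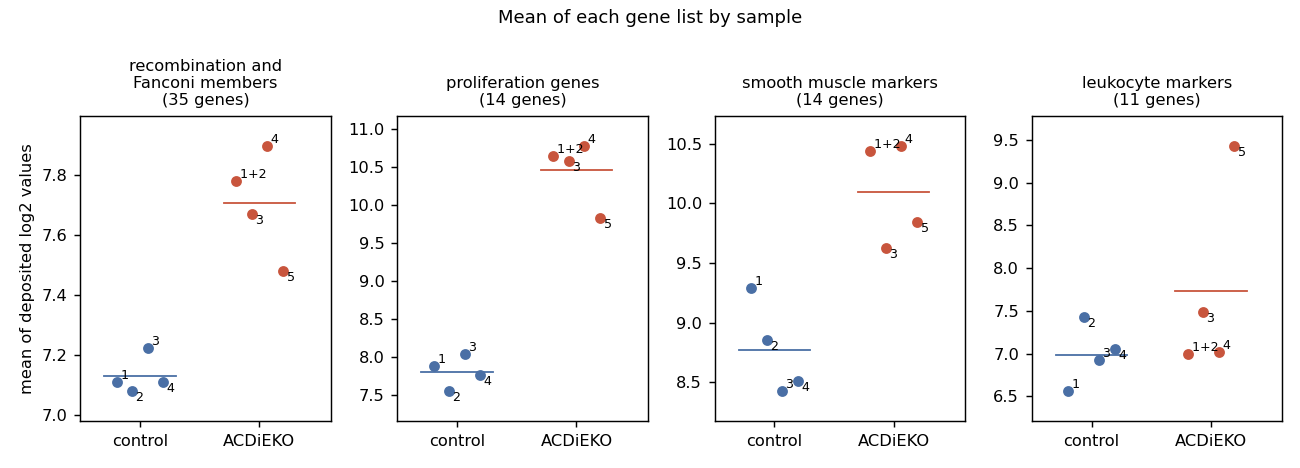
Mean deposited log2 value of 4 gene lists in each sample, control in blue and ACDiEKO in red, with replicate numbers beside the points and the group mean as a line. The members and the proliferation genes were lowest in replicate 5 among ACDiEKO samples, and leukocyte markers were highest in it.

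Other genes of the pathway were read from lists written with earlier results of these data known. Of 43 further recombination and Fanconi genes, 10 rose and none fell, with a median difference of 0.11. The 5 with the smallest p were Fignl1, an ATPase of recombination (1.91, SE 0.19, limma adjusted p = 0.0032), the junction resolvase Gen1 (1.79), Ercc1, a subunit of the XPF nuclease (0.75), the ubiquitin ligase Rad18 (2.33) and Zgrf1 (2.0). Ube2t, the ubiquitin-conjugating enzyme of the Fanconi core, rose by 1.52 and Polq, the polymerase of alternative end joining, by 0.74. Of 14 further checkpoint genes, 5 rose and none fell, with a median of 0.22: the histone H2ax by 2.02, the fork protector Tipin by 1.46, the phosphatases Cdc25c by 1.00 and Cdc25a by 0.64, and Rif1 by 1.05.

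Lists of other repair routes were read in the same way. In non-homologous end joining, which ligates ends without a template, 0 of 8 genes passed (limma), with a median of 0.01. The 2 at an unadjusted p under 0.05 went in opposite directions, Xrcc6 (Ku70), the nearest to passing, at 0.47 and Nhej1 at -0.42. In nucleotide excision repair, Ercc5 fell by 0.37 and 10 of 11 genes did not pass, with a median of 0.12. In mismatch repair, Msh6 rose by 0.76 and the other 4 genes did not pass, with a median of 0.21. In base excision repair, the glycosylase Neil3 rose by 1.95 and the endonuclease Apex1 by 0.57, Nthl1 fell by 0.30, and 9 of 12 did not pass, with a median of 0.03. Differences between these lists were not tested.

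**Figure D4:**
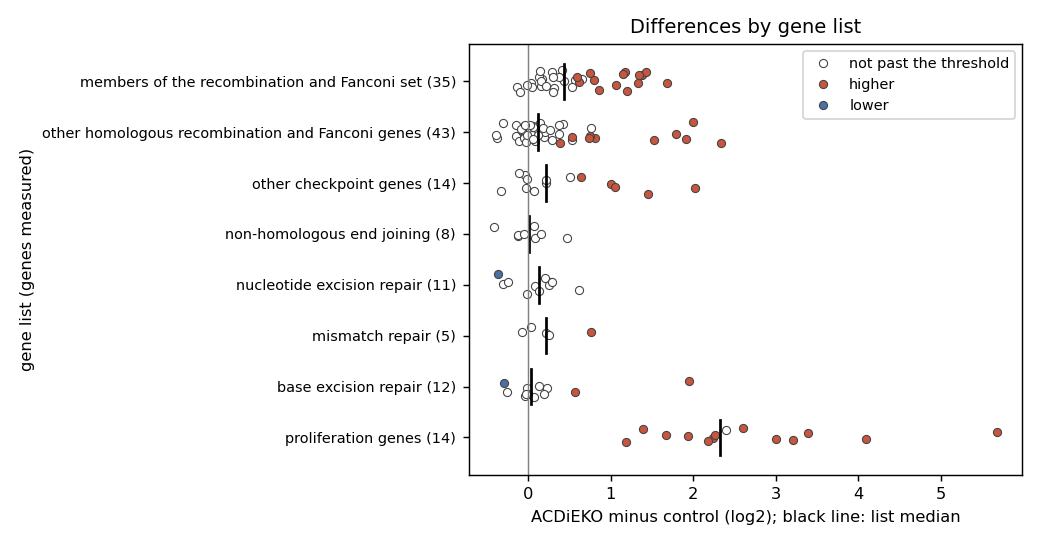
Log2 difference, ACDiEKO minus control, of each gene by list, with the list median as a black line. Red circles rose, blue circles fell and white circles did not pass. The medians were 0.43 for the members, 0.11 for other recombination and Fanconi genes and 0.01 for end joining.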

How the data were processed

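Array values were used as the authors deposited them, in log2 units, after RMA per the submitters' processing notes (no version given), a method that subtracts background, equalises arrays and combines the probes of a transcript cluster. They ran from 2.58 to 19.34. Whether the authors scaled them further is not known, so differences are not turned into folds. Genome build and annotation are not given in the sources used here.

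Of 72688 features, 6732 controls were left out. Of 65956 clusters, 30604 had 1 symbol, 2146 several and 33206 none in the array's table of names. Through gene IDs, 827 symbols were updated to GRCm38 RefSeq names, and the brightest cluster per symbol gave 30142 genes. The test was limma (version 3.58.1, R 4.3.3; lmFit and eBayes, two-sided, Benjamini-Hochberg at 0.05) of 4 against 4 samples. It had no filter on dim genes, so that no member entered only through the group where it was high. In 5 simulated sets with 200 changed genes of 30142, 77.2% of changes of 1 log2 unit and 94.2% of changes of 2 were recovered, with 6.12% false calls. The simulated noise was normal and independent between genes, without the variation that genes share across samples. These rates may therefore not hold for the real arrays. Alternatives covered filters, scaling, weights, covariates, the replicate numbers as a block and each sample left out.

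Titles number 2 controls 3, and the later one is control replicate 4 here. The arrays were not treated as paired in the main fit. Between arrays with the same title number, deviations from group means correlated by -0.03, -0.13, 0.02 and 0.01. Both controls titled 3 were set against ACDiEKO replicate 3. These values gave no sign of pairing and cannot exclude it. The members and lists were chosen with earlier results of these data known. By rule, sample values were given for risen members and, in each role, for the brightest other member and those the role is named for, and up to 5 genes of each other list were named by smallest p. Ube2t, Polq and the endothelial and smooth muscle markers named were chosen after their values were seen. Each array is 1 aorta, and the number of arrays limits the precision. Figures were drawn with matplotlib.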

Additional observations from a re-analysis of the deposited data

Results flagged for a closer look

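In 3 of 112 groups of 4 samples, 1 sample lay far from the others, by a rule that chance meets in about 1 group in 20. Fancf read 5.64 in control replicate 2, against 5.37 to 5.38 in the other controls. Fancg read 8.56 in ACDiEKO replicate 3, against 8.25 to 8.26 in the other ACDiEKO samples. Rad50 read 8.36 in control replicate 2, against 8.76 to 8.84 in the other controls. None of these genes passed the test between groups.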

How the results depend on the processing

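Of 35 members, 14 passed as reported. The count was 3 of 8 measured under a filter at the 75th percentile, 8 with a term for the animal numbers, 1 without the 2 controls whose numbers lie apart, 0 with the smooth muscle mean as a covariate (7 at an unadjusted p under 0.05) and 4 at an adjusted p under 0.01. Leaving out 1 sample gave 7 to 15. With the replicate numbers as a block over 9 arrays it was 13. Of 57 other pathway genes, 15 passed as reported, 1 without those controls, 0 with the covariate (9 at an unadjusted p under 0.05), 5 at 0.01, 7 to 16 without 1 sample and 13 with the block. The cause of these changes in the counts was not tested. A filter or an omission also leaves fewer genes or samples, and the part of that loss was not tested either.

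Over all genes, 1970 passed as reported, 3050 with all 9 arrays as samples, 1022 with the animal number term and 301 without those 2 controls. None passed with the covariate, 1540 with the block, and 854 to 1480 without 1 sample. Under the filter at the 75th percentile, 1018 of 8738 genes were called higher and 894 lower, beside 3 of 8 members higher. Signs turned only among members that did not pass. Fancl (-0.02) was 0.039 after centring, 0.052 after quantile normalization, 0.067 with the animal number term and without those controls, 0.10 with the covariate, and between -0.11 and 0.084 without 1 sample (0.043 without ACDiEKO replicates 1 and 2). Fancc was between -0.046 and 0.11 without 1 sample, and Mus81 was -0.23 with the covariate. The other members kept their sign in every alternative run.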

Other observations

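Some deposited values repeat exactly, at the up to 5 decimals given, on different arrays. This held for 11 of the 35 members, none of them among the 14 that rose, and for 61.3% of all genes. A value was shared by 3 arrays in 8 members, among them Rad52 (9.87171), Xrcc3 (7.27019), Fancc (7.38887) and Slx4 (7.73225). Repeats were found in 78.1% of genes with a mean below the median of the table and in 47.2% of the others.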
